A study of Homo sapiens with 6 samples.

Results

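The genes described are 36 transporters that move bicarbonate, protons, chloride and related ions across epithelial membranes. They were taken by name from the deposited table of 19960 genes: every symbol in it made of SLC4A, SLC9A, SLC12A or SLC26A and a number alone, except SLC9A3 and SLC12A7. The SLC9B and SLC9C genes were not members. The rule used no measured value, but it was chosen with earlier results of these data known. It gave 10 members each of SLC4 and SLC26 and 8 each of SLC9 and SLC12. Their RNA was measured in MKN28, an established human gastric cancer cell line, by sequencing of total RNA. The shLTBP1 cells stably expressed a plasmid with a short hairpin RNA against LTBP1, a protein that tethers latent TGF-beta in the extracellular matrix. The shSCR cells, grown in the same medium, stably expressed a plasmid with a scrambled hairpin. Each group had 3 libraries. The labels do not say whether these came from separate cultures or transductions, so the tests below weigh each difference against a spread among libraries that may be technical only.

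Cells make acid as they respire, and the membrane is nearly closed to protons, bicarbonate and chloride without carriers. SLC9 exchangers push protons out in return for sodium, sodium-coupled SLC4 members bring bicarbonate in, and the SLC4 and SLC26 anion exchangers let bicarbonate out in return for chloride. SLC12 cotransporters load chloride into the cell together with sodium and potassium, or let it out with potassium. In the stomach these carriers serve both the secretion of acid and the bicarbonate layer that shields the mucosa from it.

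The deposited value of a gene is a read count that the authors had normalized with DESeq2, called the normalized count here. The values summed to between 30479879 and 30941103 per library, and they no longer carry the sequenced depth. LTBP1 had 59.0, 66.7 and 49.0 normalized counts in the shLTBP1 libraries, against 977, 964 and 1011 in the shSCR libraries. All 3 values were lower than any shSCR value (exact two-sided permutation test, p = 0.1, the smallest that 3 libraries against 3 allow). The epithelial markers EPCAM, CDH1, KRT8, KRT18 and KRT19 summed to 267214 to 291416 in shLTBP1 libraries and 307451 to 328371 in shSCR libraries, most of it KRT8 and KRT18. Within that list EPCAM, which lies on chromosome 2, fell to 46.0% of its shSCR mean (log2 fold change -1.12, limma adjusted p = 1.39e-07). With the median of its neighbours subtracted EPCAM was at -0.55 and still passed (limma adjusted p = 3.48e-05). CDH1 and KRT18 fell by 0.34 and 0.25 on the log2 scale, KRT19 rose by 0.22 (limma adjusted p = 0.0109) and KRT8 did not pass. Of the defining genes of specialised gastric cells, TFF2, GKN1, GKN2, ATP4B, CBLIF, PGA3, PGA4, PGA5 and LIPF were listed at 0 in all 6 libraries, and the surface mucous, parietal and chief cell lists each summed to less than 5 in every library. Of the other cell types, 5 fibroblast markers summed to 706 to 930 in shLTBP1 and 1094 to 1337 in shSCR libraries, nearly all of it COL1A1, and the list's LUM had 41.5, 52.0 and 36.6 in shLTBP1 libraries and was listed at 0 in all shSCR libraries. Replicate 3 of shSCR stood apart in the globin gene HBA1, at 803, against 12.0 or less in the other libraries. CD68, a macrophage gene of the same blood list, was at 605 to 713 in shLTBP1 and 340.0 to 382 in shSCR libraries (log2 fold change 0.87, limma adjusted p = 2.87e-05). The part of these markers in the results below was not tested. Calls that are lost without shSCR replicate 3 are named where they occur.

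Of the 36 transporters, 22 had a mean of at least 10 over all 6 libraries and entered a limma fit on log2(value + 1) with all 12789 genes that reached this mean. With a Benjamini-Hochberg adjusted p under 0.05 as the threshold, 11 transporters fell and 5 rose in shLTBP1 cells, and 6 did not pass. Of all genes tested, 53.1% passed. As shares of all genes tested, 26.8% were called lower and 26.3% higher. The members' shares were 72.7% called, 11 of 22 lower and 22.7% higher. The median log2 fold change of the 22 members was -0.46, and that of all genes tested was 0.004. Changes of at least 2-fold were found for SLC26A9, SLC4A3 and SLC9A7, which fell, and for SLC26A11, which rose. Such changes made up 4.39% of all genes tested for falls and 4.54% for rises. The libraries of the groups did not overlap for 17 of the 22, where the share over all genes was 60.8%. In bulk RNA, fewer cells that express a gene and less RNA per cell cannot be told apart.

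**Figure D1:**
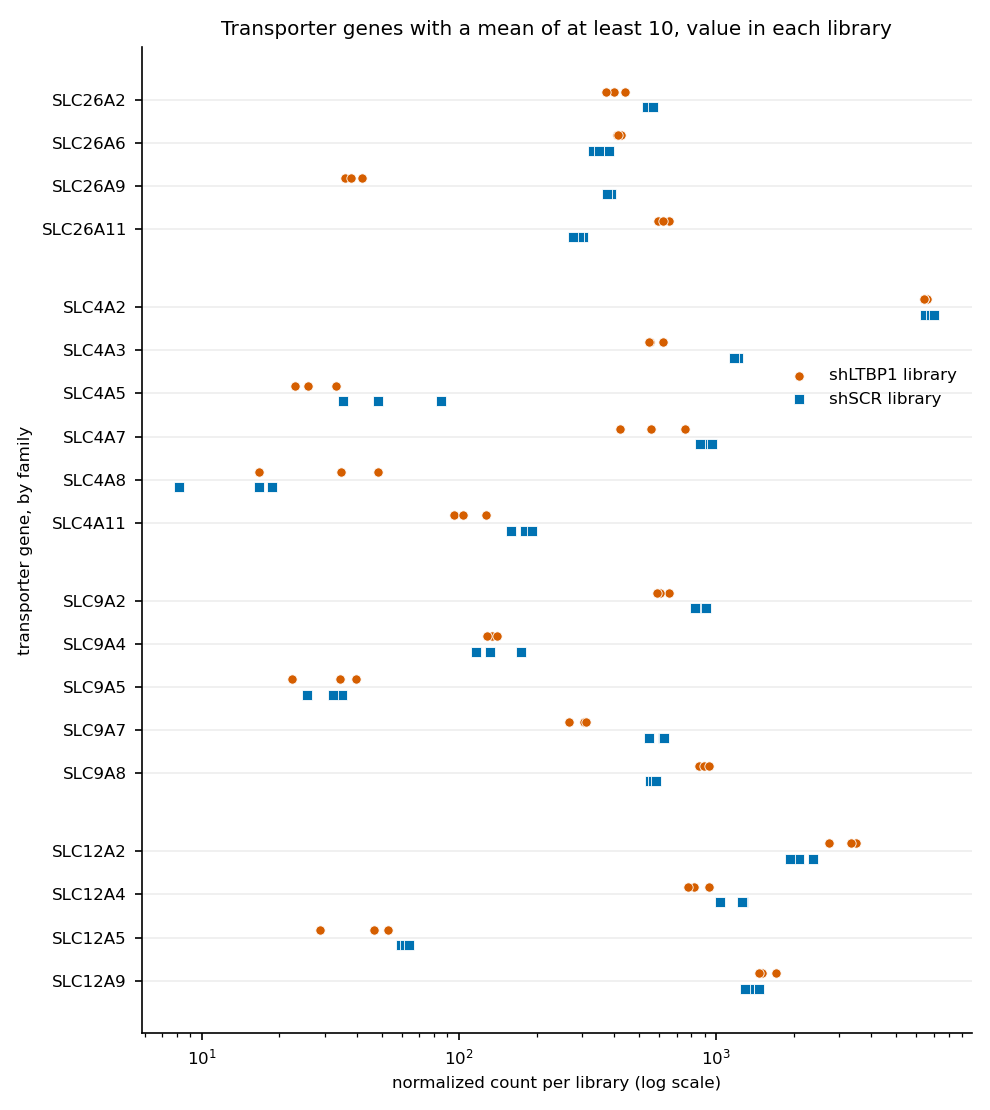
Normalized count (x axis, log scale) of each of 19 transporter genes with a mean of at least 10, in rows grouped by family. Circles are the 3 shLTBP1 libraries and squares the 3 shSCR libraries; SLC26A9 stands out with shLTBP1 values of 35.9 to 42.0 and shSCR values of 376 to 390.0.

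Within SLC26, the family of broad-range anion carriers, 2 of the 4 tested members rose and 2 fell (26.3% and 26.8% over all genes tested). The lowest log2 fold change of the tested members was that of SLC26A9. SLC26A9, a chloride transporter of gastric and airway surface epithelium, had 35.9, 38.1 and 42.0 normalized counts in shLTBP1 libraries, against 383, 390.0 and 376 in shSCR libraries. The means were 38.7 ± 3.06 in shLTBP1 and 383 ± 6.96 in shSCR (SD, n = 3 each), so that 10.1% of the control level remained. All 3 shLTBP1 libraries were low and the groups did not overlap. Its log2 fold change, which here always sets shLTBP1 over shSCR on the log2(value + 1) scale, was -3.28 with a 95% confidence interval of -3.56 to -3.00 (limma adjusted p = 5.12e-08). Of the 12789 genes tested, 12 had a lower log2 fold change. SLC26A9 (ENSG00000174502) lies on the minus strand of chromosome 1 from 205913048 to 205943460 in hg38. The neighbouring tested genes, up to 25 on each side, had a median log2 fold change of -0.14.

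SLC26A11 moved the other way. This carrier of sulfate and other anions had 595, 657 and 622 normalized counts in shLTBP1 libraries, against 302, 292 and 276 in shSCR libraries. Every shLTBP1 value was higher than every shSCR value. The log2 fold change was 1.11 (standard error 0.08, limma adjusted p = 2.83e-06). SLC26A2, the sulfate carrier needed for cartilage matrix, fell slightly, with 372 to 439.8 in shLTBP1 and 538 to 569 in shSCR libraries (log2 fold change -0.44, limma adjusted p = 0.00162). SLC26A6, an exchanger of chloride for bicarbonate and oxalate at the apical membrane, was at 409 to 427 in shLTBP1 and 333 to 381 in shSCR libraries. Its log2 fold change of 0.24 passed (limma adjusted p = 0.0378). SLC26A6 lost the call without any 1 of the libraries except shSCR replicate 2 (limma adjusted p = 0.0535 to 0.13). The call was also lost without a minimum mean, with a replicate block and after subtraction of its neighbours' median (limma adjusted p = 0.0569, 0.0622 and 0.103).

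The other 6 SLC26 genes had means under 10. SLC26A3, the chloride-bicarbonate exchanger of the intestine, and SLC26A5, the motor protein prestin of the inner ear, were listed at 0 in all 6 libraries. SLC26A4 (pendrin), SLC26A7, found in acid-secreting cells of stomach and kidney, and SLC26A8, of the testis, had values between 0.833 and 13.0. SLC26A1, a sulfate and oxalate carrier, had 7.95, 8.30 and 3.86 in shLTBP1 libraries, against 2.62, 0.859 and 0.837 in shSCR libraries. The groups did not overlap, and in the fit without a minimum mean SLC26A1 passed (log2 fold change 1.68, limma adjusted p = 0.0141). Its exons overlap those of IDUA on the opposite strand over 12.4% of their length, and the strand setting of the counting is not given in the sources used here.

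Divided by exon length, the SLC26 genes changed places, while the family's sums in the groups differed by less than their SDs. Exon length is the union of all annotated exons of the gene in GENCODE release 29. The 10 members summed to 250.3 ± 4.07 normalized counts per kilobase in shLTBP1 and 249 ± 3.61 in shSCR libraries (SD, n = 3 each). SLC26A9 made up 2.74% of that sum in shLTBP1 and 27.3% in shSCR cells, where it had the highest level per kilobase of the family. SLC26A11 made up 50.9% of the sum in shLTBP1 and 23.7% in shSCR cells. The 4 tested SLC26 genes were spread between 6.87 and 127 per kilobase in shLTBP1 cells, and lay close together between 55.5 and 68.0 per kilobase in shSCR cells.

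**Figure D2:**
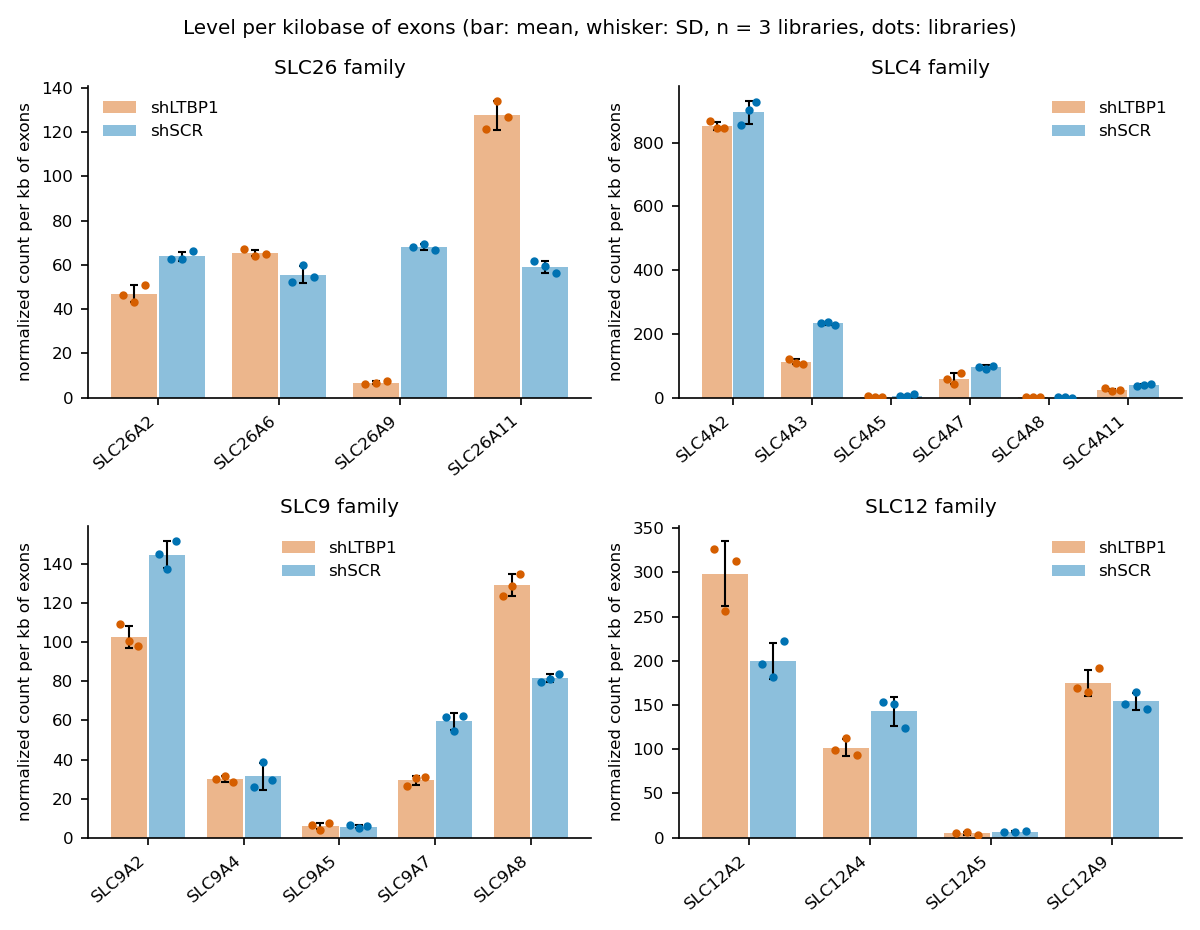
Normalized count per kilobase of exons (y axis, from 0) for tested genes of each family, with shLTBP1 to the left of shSCR; bars are means, whiskers SDs over 3 libraries and dots the libraries. In SLC26 the bar of SLC26A9 is at 6.87 in shLTBP1 and 68.0 in shSCR, and SLC4A2 and SLC12A2 have the tallest bars of the SLC4 and SLC12 genes shown in both groups.

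The promoter windows of SLC26A9 and SLC9A7, which fell, and of SLC9A8, which rose, are shown. These genes passed the threshold and were picked after their values were seen. Each runs from 250 bases before to 50 bases after a RefSeq start site on GRCh38.p14 and is written 5′ to 3′ on the gene's strand. The table held 43 such windows for 28 of the 36 members. Capitals mark 3 motifs searched on both strands: TATAAA (the TATA box), GGGCGG (the GC box) and CAGAC (the core that SMAD proteins, effectors of TGF-beta receptors, can bind).
SLC26A9, chr1:205943407-205943706, minus strand: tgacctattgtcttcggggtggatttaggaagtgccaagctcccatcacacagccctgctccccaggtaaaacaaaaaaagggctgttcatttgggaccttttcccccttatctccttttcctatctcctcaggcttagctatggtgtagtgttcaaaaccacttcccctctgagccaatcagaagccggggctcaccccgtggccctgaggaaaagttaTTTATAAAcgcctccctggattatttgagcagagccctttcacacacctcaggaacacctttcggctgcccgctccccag
SLC9A7, chrX:46759069-46759368, minus strand: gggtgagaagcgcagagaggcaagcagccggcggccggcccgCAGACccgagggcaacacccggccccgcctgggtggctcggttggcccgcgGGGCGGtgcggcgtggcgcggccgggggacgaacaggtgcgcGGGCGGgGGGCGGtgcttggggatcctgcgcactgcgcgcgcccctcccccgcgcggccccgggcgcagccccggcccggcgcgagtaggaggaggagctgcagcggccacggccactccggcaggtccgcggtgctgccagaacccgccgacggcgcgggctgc
SLC9A8, chr20:49812578-49812877, plus strand: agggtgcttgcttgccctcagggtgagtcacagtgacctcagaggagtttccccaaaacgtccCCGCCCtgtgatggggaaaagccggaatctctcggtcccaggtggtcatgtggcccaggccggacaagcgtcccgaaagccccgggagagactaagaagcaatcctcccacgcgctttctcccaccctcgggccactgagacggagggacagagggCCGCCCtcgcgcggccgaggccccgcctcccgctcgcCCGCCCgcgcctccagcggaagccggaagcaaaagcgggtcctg
The SLC26A9 window held TATAAA on both strands, as overlapping matches that begin 30 and 28 bases before the start site, and neither of the other motifs. TATAAA was found in 11.5% of all 35116 promoter windows in the table and in 5 of the members' 43. The SLC9A7 window held 3 GGGCGG matches and 1 CAGAC match, and the SLC9A8 window held 3 GGGCGG matches. GGGCGG was found in 44.95% and CAGAC in 45.3% of all windows, and in 21 and 18 of the members' 43. The G and C content was 51.7% for SLC26A9, 80.7% for SLC9A7 and 67.3% for SLC9A8. A match describes the letters of these windows and no binding was measured.

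In SLC4, the bicarbonate transporter family, the abundant member did not pass the threshold and 4 of the other 5 tested members fell. The share called lower was 26.8% over all genes tested and 76.6% on chromosome 2, where SLC4A3 and SLC4A5 lie. SLC4A2 (AE2), the widespread exchanger of chloride for bicarbonate, had 6422 to 6578 normalized counts in shLTBP1 and 6493 to 7036 in shSCR libraries, and the groups overlapped. Its log2 fold change was -0.07 with a 95% confidence interval of -0.17 to 0.03 (limma adjusted p = 0.227). SLC4A3 (AE3), the exchanger best known from heart and brain, had 619, 553 and 546 in shLTBP1 libraries, against 1187, 1213 and 1168 in shSCR libraries. The groups did not overlap, and the shLTBP1 mean was 48.2% of the shSCR mean (log2 fold change -1.055, standard error 0.07, limma adjusted p = 1.46e-06). SLC4A1 (band 3), the exchanger of red blood cells, stayed at 2.76 or less in every library, including the shSCR library with high HBA1, where it was listed at 0.

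Of the sodium-coupled bicarbonate importers, SLC4A7 and SLC4A5 fell and SLC4A8 did not pass. SLC4A7 (NBCn1) had 555, 422 and 754 in shLTBP1 libraries, against 934, 861 and 965 in shSCR libraries. The shLTBP1 libraries varied widely, with an SD of 167, but all lay lower than the shSCR libraries (log2 fold change -0.71, limma adjusted p = 0.00596). SLC4A5 (NBCe2) had 33.2, 25.9 and 22.9 in shLTBP1 libraries, against 35.3, 48.2 and 84.8 in shSCR libraries. The highest shLTBP1 value came close to the lowest shSCR value. The log2 fold change of -0.93 (limma adjusted p = 0.034) became -0.59 without shSCR replicate 3 (limma adjusted p = 0.127). It also lost the call without shSCR replicate 2, shLTBP1 replicate 2 or shLTBP1 replicate 3 (limma adjusted p = 0.0594 to 0.0924). The same held without a minimum mean and without the variance trend (limma adjusted p = 0.0521 and 0.0598). With its neighbours' median subtracted the log2 fold change was -0.27 and did not pass (limma adjusted p = 0.516). SLC4A5 shares 47.5% of its exon length with the same-strand gene AC006030.1 and 16.5% with MTHFD2 on the opposite strand, so its reads are uncertain.

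SLC4A8, which exchanges sodium and bicarbonate for chloride, had 16.7, 34.7 and 48.2 in shLTBP1 libraries, against 16.7, 18.7 and 8.16 in shSCR libraries. The groups overlapped, and the log2 fold change was 1.10 with a 95% confidence interval of 0.09 to 2.10 (limma adjusted p = 0.0634). It passed without shLTBP1 replicate 1, the library with the low value (log2 fold change 1.51, limma adjusted p = 0.0174). SLC4A11, a proton-permeable member mutated in a corneal endothelial dystrophy, fell to 127, 95.8 and 104 in shLTBP1 libraries, against 159, 180.1 and 192 in shSCR libraries (log2 fold change -0.705, limma adjusted p = 0.00256). All its shLTBP1 values were lower than its shSCR values. SLC4A4, SLC4A9 and SLC4A10 had values of 8.72 or less in every library. SLC4A10 was at 0.737 or less in shLTBP1 libraries and at 8.72, 2.14 and 1.24 in shSCR libraries, and did not pass in the fit without a minimum mean (limma adjusted p = 0.054). Per kilobase of exons, SLC4A2 made up 80.7% ± 1.47 of the family's sum in shLTBP1 and 70.2% ± 0.679 in shSCR cells, and SLC4A3 10.6% ± 0.576 in shLTBP1 and 18.3% ± 0.753 in shSCR cells (SD, n = 3 each). That sum was lower in shLTBP1 cells, at 1057 ± 27.98, against 1275 ± 40.1 in shSCR cells. The level of SLC4A2 itself was 853 ± 11.7 in shLTBP1 and 895 ± 36.3 in shSCR cells.

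In SLC9, the sodium-proton exchangers, 2 of the 7 tested members rose, 3 fell and 2 did not pass. Over all genes tested the shares were 26.3% higher and 26.8% lower. SLC9A2 (NHE2), an exchanger of gastric and intestinal epithelium, was at 586 to 653 in shLTBP1 and 824 to 908 in shSCR libraries (log2 fold change -0.50, limma adjusted p = 0.000292). With the median of its chromosome 2 neighbours subtracted it was at 0.12 and did not pass (limma adjusted p = 0.221). SLC9A4 (NHE4), known from the basolateral membrane of acid-secreting stomach cells, was at 128 to 140.4 in shLTBP1 and 116 to 175 in shSCR libraries, and the groups overlapped (log2 fold change -0.05, 95% confidence interval -0.41 to 0.31, limma adjusted p = 0.823). SLC9A5 (NHE5), an exchanger of neurons, was at 22.4 to 39.8 in shLTBP1 and 25.6 to 35.1 in shSCR libraries, with a log2 fold change of 0.02 and a wide 95% confidence interval of -0.61 to 0.65 (limma adjusted p = 0.953).

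Of the organelle exchangers, SLC9A7 fell and SLC9A8 rose. SLC9A7 (NHE7), of the trans-Golgi network, had 267, 307 and 310.4 in shLTBP1 libraries, against 619, 548 and 623 in shSCR libraries (log2 fold change -1.02, limma adjusted p = 1.39e-05). SLC9A8 (NHE8), of the Golgi and the apical membrane, had 859, 894 and 938 in shLTBP1 libraries, against 554, 565 and 583 in shSCR libraries (log2 fold change 0.66, limma adjusted p = 2.53e-05). For both genes the groups did not overlap. SLC9A9 (NHE9), of late endosomes, was near the floor, with 0, 0.492 and 0 in shLTBP1 libraries and 0.932, 4.004 and 4.018 in shSCR libraries. It passed in the fit without a minimum mean (limma adjusted p = 0.0218), the only fit that it entered.

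Per kilobase of exons SLC9A8 reached 129 ± 5.71 in shLTBP1 and 81.7 ± 2.09 in shSCR cells, and SLC9A7 29.4 ± 2.40 in shLTBP1 and 59.5 ± 4.24 in shSCR cells (SD, n = 3 each). The gap between these exchangers was thus wider in shLTBP1 cells. The 8 members of the family together summed to 964 ± 26.9 per kilobase in shLTBP1 and 801 ± 22.5 in shSCR cells.

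In SLC12, the cation-chloride cotransporters, 1 of the 5 tested members rose, 2 fell and 2 did not pass. Over all genes tested the shares were 26.3% higher and 26.8% lower. SLC12A2 (NKCC1), which loads chloride with sodium and potassium, had 3479, 2736 and 3337 in shLTBP1 libraries, against 2096, 1935 and 2367 in shSCR libraries. Both groups varied, but all shLTBP1 values lay higher (log2 fold change 0.575, limma adjusted p = 0.000832). SLC12A4 (KCC1), the widespread exporter, was at 778 to 937 in shLTBP1 and 1030.4 to 1273 in shSCR libraries (log2 fold change -0.48, limma adjusted p = 0.00236). SLC12A5 (KCC2), the neuronal exporter, was at 28.6 to 52.7 in shLTBP1 and 59.5 to 63.6 in shSCR libraries, and did not pass (log2 fold change -0.565, limma adjusted p = 0.0756), although the groups did not overlap. It passed without shLTBP1 replicate 2 (log2 fold change -0.74, limma adjusted p = 0.0385).

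SLC12A9, a member whose cargo is not settled, was at 1459.8 to 1708 in shLTBP1 and 1296 to 1469 in shSCR libraries, and the groups overlapped (log2 fold change 0.185, limma adjusted p = 0.0625). It passed without shSCR replicate 2 and without shLTBP1 replicate 2 (limma adjusted p = 0.0414 and 0.0332), and with upper quartile scaling or quantile normalization (limma adjusted p = 0.0354 and 0.04975). SLC12A1 (NKCC2), the importer of the kidney, was listed at 0 in all 6 libraries. SLC12A3 (NCC) was at 1.58 or less and SLC12A8 at 10.6 or less in every library. Per kilobase of exons, SLC12A2 made up 44.6% ± 3.17 of the family's sum in shLTBP1 and 30.3% ± 3.31 in shSCR cells (SD, n = 3 each). The sum over the 8 members was 669 ± 43.3 per kilobase in shLTBP1 and 661 ± 4.97 in shSCR cells.

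Of the tested members, 4 lie on chromosome 2, where genes were lower in shLTBP1 as a whole. The median log2 fold change of the chromosome's 852 tested genes was -0.56, and 76.6% of them were called lower. SLC4A3, SLC4A5 and SLC9A2 fell, and SLC9A4 did not pass. Off chromosome 2, 8 of 18 tested members were called lower, where the share over all other tested genes was 23.2%. When the median of neighbouring genes was subtracted from each gene in each library, SLC4A3 kept its call (log2 fold change -0.63, limma adjusted p = 9.97e-05) and SLC4A5 lost it (-0.27, limma adjusted p = 0.516). SLC9A2 also lost it, its own change being close to its neighbours' median of -0.58. SLC9A4 then had 0.55 and passed (limma adjusted p = 0.0173). After this subtraction 9 members were lower and 5 higher, where the shares over all genes were 24.7% lower and 24.1% higher; all 9 and 4 of the 5 were called in the same direction without it. The other tested members had neighbour medians between -0.14 and 0.16.

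**Figure D3:**
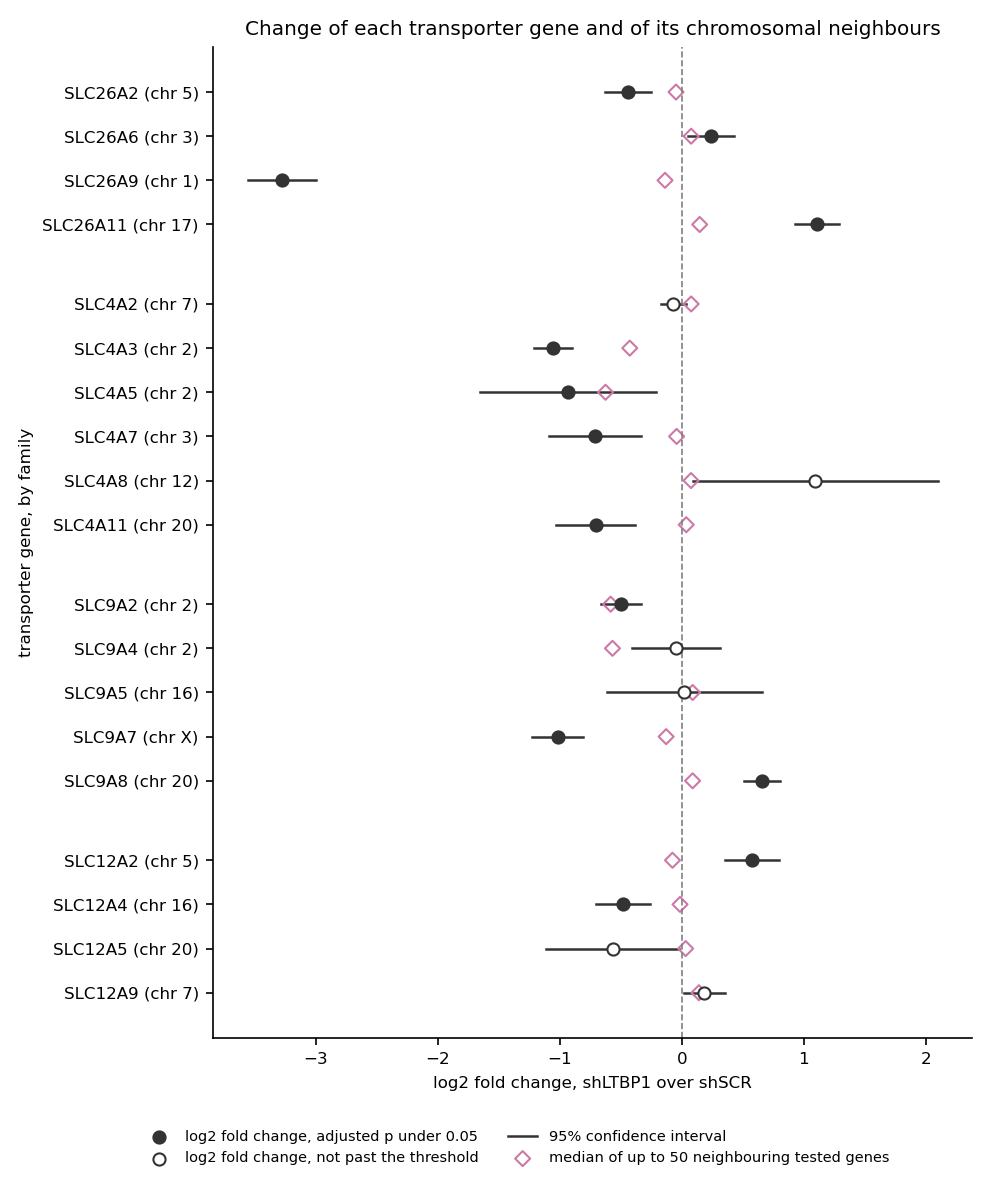
Log2 fold change of 19 tested transporters, shLTBP1 over shSCR (x axis), with its 95% confidence interval; filled circles passed a limma adjusted p of 0.05, open circles did not, and diamonds are the median of neighbouring tested genes. The diamonds of the 4 chromosome 2 genes lie between -0.625 and -0.43, and that of SLC9A2 lies beside its own value.

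Genes that work with these transporters were read from 6 lists. Beside the counts below, 26.8% of all genes tested were called lower and 26.3% higher. The first holds kinases and scaffold proteins that set the transporters' activity. Of its 25 genes 21 were tested, 7 fell (33.3%) and 5 rose (23.8%), with a median log2 fold change of -0.10. WNK1, the kinase at the head of the cascade that switches on SLC12A2 and restrains the exporters, was at 4956 ± 343 in shLTBP1 and 7819 ± 449 in shSCR cells (SD, n = 3 each; log2 fold change -0.66). STK39 (SPAK), the kinase that WNK1 activates, had 266, 244 and 270.0 in shLTBP1 libraries, against 683, 629 and 604 in shSCR libraries. Its log2 fold change was -1.29, or -0.77 with the median of its chromosome 2 neighbours subtracted, and both passed. CAB39 and CUL3, which also fell, lie on chromosome 2 as well. CAB39 was at -0.65, and kept its call with its neighbours' median subtracted (-0.28, limma adjusted p = 0.00332). CUL3 was at -0.43, and lost its call with its neighbours' median subtracted (-0.02, limma adjusted p = 0.784). OXSR1, the close relative of STK39, was at 0.03 (limma adjusted p = 0.7). TESC (tescalcin), a calcium-binding protein, had 121, 107 and 99.6 in shLTBP1 libraries, against 419, 430.1 and 414 in shSCR libraries (log2 fold change -1.94), and the ubiquitin ligase NEDD4L was at -0.67.

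Of the regulators that rose, SGK1, a kinase that raises sodium transport in epithelia, had 5147, 4586 and 5470 in shLTBP1 libraries, against 1654, 1637 and 1682 in shSCR libraries (log2 fold change 1.61). Its relative SGK2 was at 0.93 and WNK2 at 0.84. With the median of its neighbours on chromosome 9 subtracted, WNK2 was at 0.25 (limma adjusted p = 0.0457). The scaffold SLC9A3R2 (NHERF2) was at 0.48. Without subtraction of neighbours, the limma adjusted p of these named genes past the threshold was at most 0.00201.

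Of 14 proton pump and monocarboxylate exporter genes 6 were tested, 3 rose and 1 fell (median log2 fold change 0.52). The V-type proton pump subunit ATP6V1B1, known from acid-secreting cells of the kidney, had 1006, 1086 and 952 in shLTBP1 libraries, against 218, 203 and 176 in shSCR libraries. It rose by 2.35 on the log2 scale (limma adjusted p = 8.91e-08) although it lies on chromosome 2, where its neighbours had a median of -0.585. ATP6V1C2, another pump subunit on chromosome 2, was at 1.21, and ATP6V0A4 at -1.29. SLC16A3 (MCT4), which exports lactate together with protons, was at 11473 ± 555 in shLTBP1 and 5605 ± 97.98 in shSCR cells (SD, n = 3 each; log2 fold change 1.03). The limma adjusted p of ATP6V1C2, ATP6V0A4 and SLC16A3 was at most 0.00157. The gastric proton pump genes ATP4A and ATP4B were at 4.65 or less in every library.

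Of 31 chloride channel genes 22 were tested, 6 rose and 5 fell (median log2 fold change 0.05). CFTR, the chloride channel mutated in cystic fibrosis and a partner of SLC26 proteins, was at 0, 0 and 4.76 in shLTBP1 libraries and at 2.23, 0.549 and 0 in shSCR libraries. LRRC8D, a subunit of the volume-regulated anion channel, had 3879, 3998 and 3979.9 in shLTBP1 libraries, against 1798, 1726 and 1682 in shSCR libraries (log2 fold change 1.19). CLCN7, also counted as higher (limma adjusted p = 0.0426), no longer passed when shSCR replicate 3 was left out (limma adjusted p = 0.113) and under 6 other alternatives. CLCN2 was at 0.84, or 0.31 with its neighbours' median subtracted, the calcium-activated channel ANO1 at 0.72 and LRRC8C at 0.51. TTYH2 had a log2 fold change of -1.36, the endosomal CLCN5 of -0.87, PACC1, an acid-activated channel, of -0.47 and LRRC8B of -0.45. The 8 named genes past the threshold other than CLCN7 had a limma adjusted p of at most 0.0283, that of LRRC8C. The call of LRRC8C was lost without any 1 of the libraries except shLTBP1 replicate 2 (limma adjusted p = 0.0527 to 0.0983). It was also lost without a minimum mean and with the replicate block (limma adjusted p = 0.0582 and 0.0504).

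Of 15 carbonic anhydrases, enzymes that supply bicarbonate and protons, 5 were tested. CA2 and CA13, which act in the cytosol, fell. CA2 was at 9.62 ± 0.186 in shLTBP1 and 24.6 ± 5.92 in shSCR cells, and CA13 at 25.3 ± 15.1 in shLTBP1 and 59.4 ± 16.7 in shSCR cells (SD, n = 3 each; limma adjusted p = 0.011 and 0.0211). The membrane enzyme CA9 rose, with 34.9, 33.4 and 61.6 in shLTBP1 libraries and 33.3, 16.7 and 11.1 in shSCR libraries (limma adjusted p = 0.0395). The call was lost without shSCR replicate 3 and under 6 other alternatives (limma adjusted p = 0.0552 to 0.173). That of CA13 was lost without shSCR replicate 1 and without the variance trend (limma adjusted p = 0.0796 and 0.0572).

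Of 26 sodium pump and potassium channel genes 15 were tested, 5 rose and 3 fell (median log2 fold change -0.01). The pump subunit ATP1B1 did not pass (log2 fold change 0.02, limma adjusted p = 0.735). ATP1A4, the pump subunit best known from sperm, had 60.2, 67.3 and 66.0 in shLTBP1 libraries, against 3.22, 10.6 and 4.64 in shSCR libraries (log2 fold change 3.33). KCNQ1 was at 1.425, ATP1B3 at 0.49 and FXYD3 at 0.355. ATP1B3 and FXYD3 lost the call with their neighbours' median subtracted (limma adjusted p = 0.244 and 0.101). The potassium channels KCNK5, KCNK1 and KCNK6 fell, with log2 fold changes of -1.685, -0.73 and -0.32 (largest limma adjusted p of these 7 genes 0.0195). KCNK6 lost its call without shSCR replicate 2, shSCR replicate 3 or shLTBP1 replicate 3 (limma adjusted p = 0.0528 to 0.0693). In the last list, 3 of 8 genes were tested and SCNN1A, a subunit of the epithelial sodium channel, fell to 2458 ± 170.1 in shLTBP1, against 4076 ± 39.3 in shSCR cells (SD, n = 3 each; limma adjusted p = 4.38e-06).

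**Figure D4:**
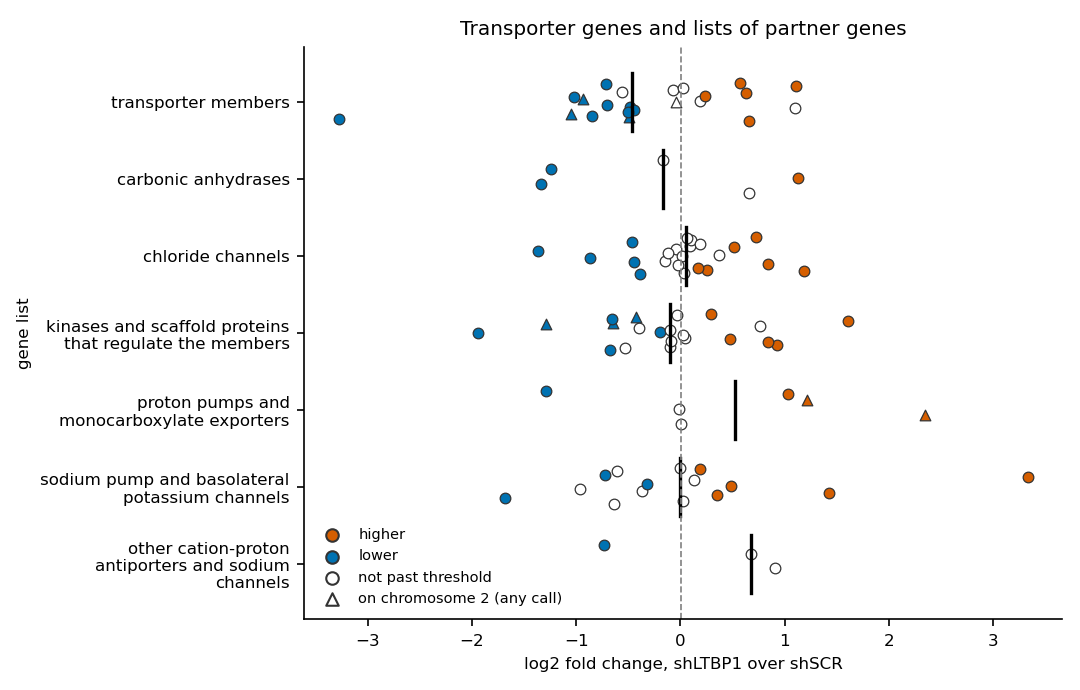
Log2 fold change, shLTBP1 over shSCR (x axis), of the tested transporters and of 6 lists of partner genes; filled marks passed a limma adjusted p of 0.05, triangles lie on chromosome 2, black bars are list medians and the dashed line is the median of all genes tested, 0.004. The transporters' median lies at -0.46, and SLC26A9 is the lowest mark in the plot.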

How the data were processed

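Total RNA of 6 MKN28 libraries (3 shLTBP1, 3 shSCR) was sequenced. The submitters' processing notes name FastQC 0.10.1, STAR 2.7.3a, RSEM 1.3.1, DESeq2 and hg38; the annotation and strand setting were not stated in the sources used here. The deposited values are a signal, gene counts that the authors had normalized with DESeq2; they are not whole reads (26.9% to 29.4% of low values within 0.05 of a whole multiple of the best step), so no count test was run and the sequenced depth is unknown.

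Genes with a mean of at least 10 were tested on log2(value + 1) with limma 3.58.1 in R 4.3.3 (group as the only term, trended variance, 4 residual and 5.6 prior degrees of freedom). Benjamini-Hochberg adjustment covered 12789 genes, with a two-sided threshold of 0.05. The script was tested on simulated data. Exon lengths, positions and overlaps came from GENCODE 29 (19872 of 19960 identifiers matched), promoters from RefSeq.

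The members and lists were chosen with earlier results of these data known. Values in every library are given for members past the threshold with an absolute log2 fold change of at least 0.5, and up to 4 genes that rose and 4 that fell are named from each partner list. The library values of SLC4A8, the genes OXSR1, ATP1B1, CFTR, CLCN7, CAB39 and CUL3, and the promoter windows were added after values were seen. Another pseudocount, minimum mean, scaling or variance model, a replicate block, subtraction of neighbours and leaving out each library were tried. Counts, sums and medians cover all members, and 3 tested members are not reported here by name.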

Additional observations from a re-analysis of the deposited data

How the results depend on the processing

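Of 349 member values under 16 alternatives, 320 kept their direction and their side of the threshold, 15 lost a call (8 of SLC26A6, 7 of SLC4A5), 6 gained one and 8 changed sign. For 14 members every alternative kept both. Leaving out 1 library gave 14 to 16 members called. With the neighbours' median subtracted, the log2 fold change was 0.118 for SLC9A2, 0.55 for SLC9A4, -0.064 for SLC9A5 and -0.004 for CLCN7, of the chloride channel list. With 1 library left out it ranged from -0.175 to 0.118 for SLC9A4, positive without shSCR replicate 2. For SLC9A5 the range was -0.147 to 0.256, with -0.106 without shSCR replicate 2 and -0.042 without shLTBP1 replicate 1, and quantile normalization gave -0.026. Of these, the calls of SLC9A2 and CLCN7 were lost and SLC9A4 gained one with neighbours subtracted. CLCN7 also lost its call under the other alternatives counted above. The cause of these changes was not tested. Libraries with the same replicate number did not deviate together (r = -0.00925, 0.0584 and -0.00074). With the replicate block 15 members were called, 4 higher and 11 lower, along with 6755 of all genes and 40 partner genes, and LTBP1 stayed at -4.07. No setting moved the median of all genes by more than 0.1. The values carry no depth, so no counting interval could be given for genes near 0.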
